A study of Comephorus dybowskii and Comephorus baikalensis and Batrachocottus nikolskii with 4 samples.

Results

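Transcripts of the proteasome and of the ubiquitin pathway were followed in skeletal muscle of 4 sculpin species of Lake Baikal. The identifiers were chosen by title. Of the 792 gene identifiers in the normalized tables, 40 carried at least 1 protein title with the word proteasome or ubiquitin in the study's annotation table. Of these, 5 that also carried an actin, myosin or tropomodulin title were left out, and 35 remained, 13 of them titled as proteasome proteins and 22 as proteins of the ubiquitin pathway. The identifiers left out were titled as the ligase ZNF598, the conjugating enzyme E2 D2, SUMO2, the proteasome maturation protein and activator subunit 2.

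*Comephorus*, with the pelagic *C. dybowski* and *C. baicalensis*, was set against *Batrachocottus*, with the benthic *B. nikolskii* and *B. multiradiatus*. All fish were wild and caught by trawl, and none was treated. Each species gave 1 library from pooled muscle RNA of 15 individuals per the labels, while the methods of the study give larger numbers per species. There is therefore no measure of spread within a species, and the 2 species of a genus stand as its 2 samples. Genus, habitat and ancestry coincide in this design and cannot be told apart. In pooled muscle, a change in the cells of the tissue and a change in RNA per cell cannot be told apart either.

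The ubiquitin pathway marks proteins for destruction. An activating enzyme (E1) charges ubiquitin, a conjugating enzyme (E2) carries it, and a ligase (E3) passes it to the target, while hydrolases remove it again. Marked proteins are unfolded and cut by the proteasome, a barrel of alpha and beta subunits (the core) closed at its ends by regulatory particles or activators. In skeletal muscle this route breaks down contractile proteins and is known for its part in wasting and remodelling.

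Depth was similar between species. Totals of the count tables ran between 54508410 and 59156409, and 3 counts corresponded to between 0.0441 and 0.0567 CPM (counts scaled to a fixed library size), the lowest level read as detected here. All levels below are CPM as deposited, a unit that is not scaled by transcript length. The 792 identifiers had been selected by the authors as different between these same libraries, so a call between genera is not independent evidence. Markers of skeletal muscle (troponins, parvalbumins, fast myosin heavy chain, 26 identifiers) summed to 126882 and 72191 CPM in *C. dybowski* and *C. baicalensis*, against 65014 and 85886 CPM in *B. nikolskii* and *B. multiradiatus*. Egg and liver markers (3 identifiers) reached 1496 CPM in *B. nikolskii* and at most 9.3 CPM elsewhere. Keratins (7 identifiers) summed to 183 and 589 CPM in *C. dybowski* and *C. baicalensis*, against 29.0 and 894 CPM in *B. nikolskii* and *B. multiradiatus*. Hemoglobins (9 identifiers) summed to 3382 and 3131 CPM in *C. dybowski* and *C. baicalensis*, against 1096 and 734 CPM in *B. nikolskii* and *B. multiradiatus*, and immune markers (8 identifiers) to between 83.5 and 442 CPM, highest in *B. nikolskii*. The part of these markers in the results below was not tested.

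An identifier in these tables is not always 1 gene. The study assembled each species alone, combined the assemblies and added a running number to every contig, and the identifiers merge contigs by the part of the name before that number. Of the 35 identifiers, 30 also carried a title without either word, 28 had titles on at least 2 contigs, and 26 had titled contigs whose running numbers lay at least 28520 apart. The same transcript name stood under different running numbers in 11 of the 35. Only 7 had a single titled contig, and 2 of these carried another title on that contig. Contigs without a title were not counted. Which contig supplied the reads of a merged identifier cannot be told apart from these tables, so the other titles are named below beside the values.

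Between genera, most of the 35 identifiers were higher in *Comephorus*. The lower *Comephorus* library exceeded the higher *Batrachocottus* one in 21 of 35 identifiers, where 44.6% of all 792 did so, and both *Comephorus* libraries were the lower ones in 10 of 35, where 39.9% of all were so. In 4 the genera overlapped. The median difference of genus means, *Comephorus* minus *Batrachocottus* on the log2(CPM + 1) scale, was 3.93 over the 35 identifiers and 1.40 over all 792. Without regard to sign, the median size of the difference was 4.44 over the 35 and 4.07 over all 792. limma, fitted over all 792 with Benjamini-Hochberg adjustment and a threshold of 0.05, called 19 of 35 as higher in *Comephorus*, where 30.1% of all were called in that direction, and 7 of 35 as higher in *Batrachocottus*, where 24.0% of all were.

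With 1 library left out, calls fell over the whole tables. Without *C. dybowski*, without *C. baicalensis* and without *B. nikolskii*, limma lost all its calls over the whole tables in each case, those of the 35 included. Without *B. multiradiatus* it called 22 of 35, beside 163 as higher and 153 as lower in *Comephorus* of all 792. The median difference of the 35 stayed between 3.63 and 4.15 log2 with any 1 library left out. The counts leave an identifier out for a genus unless both libraries pass a low level. On them 25 of the 35 were listed for both genera, where 537 of all 792 were. Listed for *Comephorus* alone were 7 and for *Batrachocottus* alone 3, and these shares over all 792 were not counted. A listing for 1 genus does not give the direction. DN1966_c0_g2, titled E2 R2, was listed for *Comephorus* alone but was highest in *B. nikolskii*, at 67.6 CPM. edgeR's quasi-likelihood test over the 4755 identifiers listed for both called 13 of the 25 as higher in *Comephorus*, where 5.01% of all were called, and 3 of the 25 as higher in *Batrachocottus*, where 4.21% of all were. The like base is the 537 of these identifiers that are also in the normalized tables, of which 27.4% were called as higher in *Comephorus* and 19.0% as higher in *Batrachocottus*. Whether the 13 of 25 and the 3 of 25 differ from these shares was not tested. By edgeR there were 19 calls of 25 without *C. dybowski* (198 higher and 94 lower of all 4755) and 4 without *C. baicalensis* (80 and 30 of all). Without *B. nikolskii* or without *B. multiradiatus* edgeR lost all its calls over the whole tables.

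**Figure D1:**
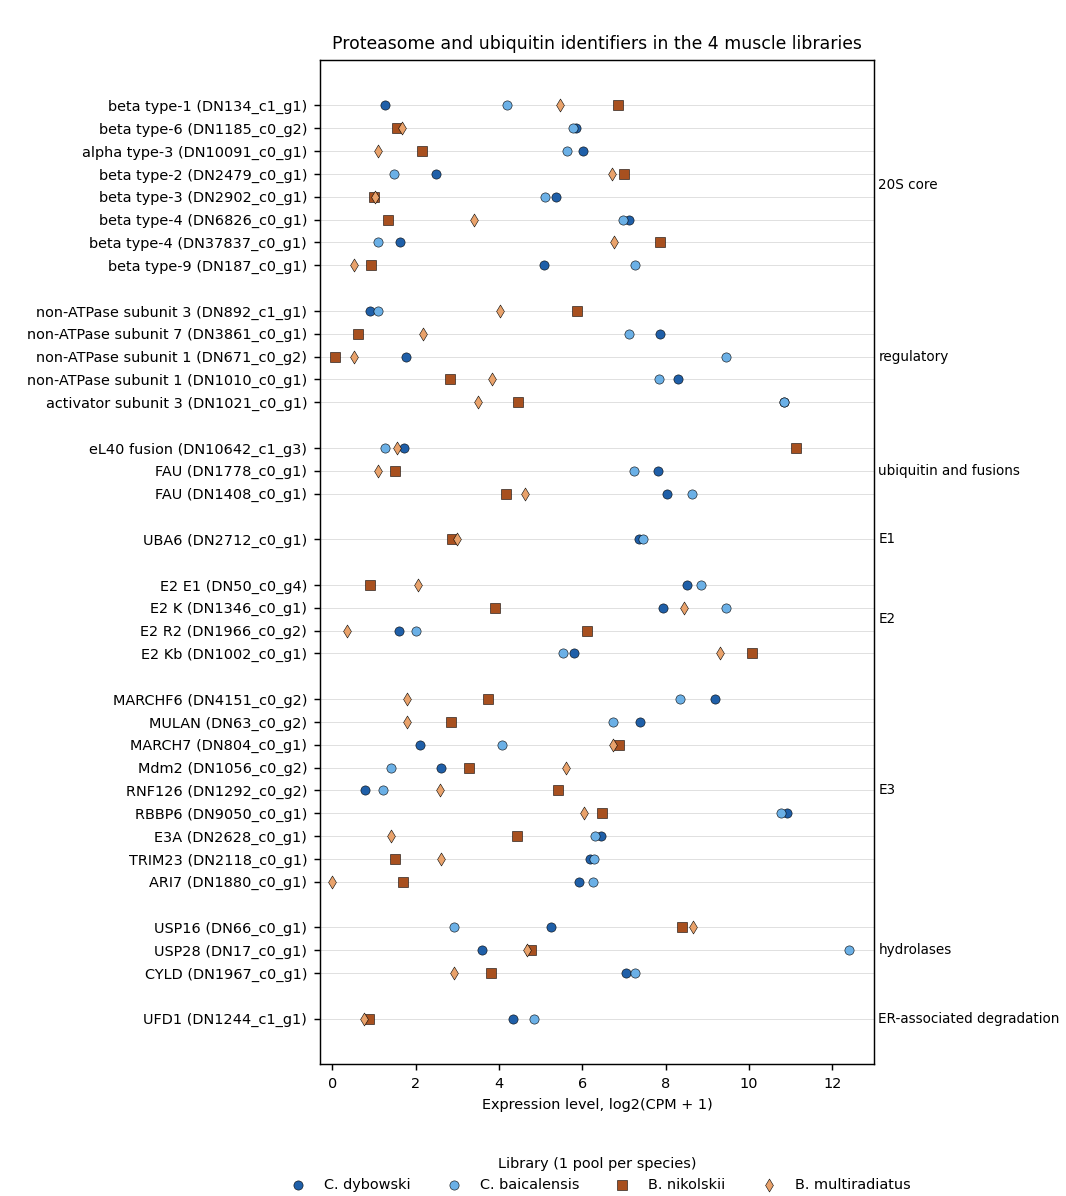
Level of each of the 34 identifiers named in the text as log2(CPM + 1) on the x axis, 1 point per library (circles *C. dybowski* and *C. baicalensis*, square *B. nikolskii*, diamond *B. multiradiatus*), grouped by role. Both circles lie right of both other symbols in 21 rows and left of both in 9.

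Among the 8 core identifiers, limma called 5 as higher in *Comephorus* (30.1% of all 792 were), 2 as higher in *Batrachocottus* (24.0% of all were) and 1 not at all. Beta type-6, which in mammals is the subunit that cuts after acidic residues, had 57.0 CPM in *C. dybowski* and 54.0 CPM in *C. baicalensis*, against 1.93 CPM in *B. nikolskii* and 2.20 CPM in *B. multiradiatus* (DN1185_c0_g2, 1 titled contig, which also carries the title trafficking protein particle complex subunit 1). The mean level was 26.9 times higher in *Comephorus*, and the log2 difference was 4.21 ± 0.72 (SE, limma adjusted p = 0.0198). Alpha type-3, a subunit of the outer rings that control entry, had 63.9 CPM in *C. dybowski* and 48.2 CPM in *C. baicalensis*, against 3.43 CPM in *B. nikolskii* and 1.14 CPM in *B. multiradiatus* (DN10091_c0_g1, also titled tubulin polyglutamylase TTLL11 on the same contig). Its log2 difference was 4.20 ± 0.82 (SE, limma adjusted p = 0.0217), and both identifiers were called by edgeR as well.

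Beta type-1, a structural subunit of the inner rings, was the 1 core identifier with a single titled contig and no other title (DN134_c1_g1). It had 1.39 CPM in *C. dybowski* and 17.4 CPM in *C. baicalensis*, against 115 CPM in *B. nikolskii* and 43.4 CPM in *B. multiradiatus*. The genera did not overlap, yet the species of *Comephorus* differed 12.5 times from each other, and the log2 difference of -3.44 ± 1.36 (SE) was not called (limma adjusted p = 0.0985), and it was -1.97 log2 without *C. dybowski*.

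The other core identifiers merged contigs with different titles. Beta type-2, another structural subunit, had 4.58 CPM in *C. dybowski* and 1.81 CPM in *C. baicalensis*, against 128 CPM in *B. nikolskii* and 103 CPM in *B. multiradiatus* (DN2479_c0_g1, also adenylosuccinate synthetase, an enzyme of purine synthesis abundant in muscle). It was lower in *Comephorus* by both tests, with a log2 difference of -4.87 ± 0.80 (SE, limma adjusted p = 0.0194). Beta type-3 had 40.2 CPM in *C. dybowski* and 33.4 CPM in *C. baicalensis*, against 1.00 CPM in *B. nikolskii* and 1.04 CPM in *B. multiradiatus* (DN2902_c0_g1, also the RNA helicase DDX23), a difference that limma called (adjusted p = 0.0198). Beta type-9 is the subunit that replaces a standard catalytic one in the immunoproteasome, the form induced by interferon in mammals. Its identifier had 33.0 CPM in *C. dybowski* and 151 CPM in *C. baicalensis*, against 0.896 CPM in *B. nikolskii* and 0.434 CPM in *B. multiradiatus* (DN187_c0_g1, also the small GTPase Rap-1b and a FILIA-N KH-like protein). It was called as higher in *Comephorus* (5.45 ± 1.06 log2, SE, limma adjusted p = 0.0217) and differed 4.58 times between the species of that genus. With a pseudocount of 10 it was not called (limma adjusted p = 0.0562).

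Beta type-4 was titled on a pair of identifiers that ran in opposite directions. DN6826_c0_g1 (also the kinase GCN2) had 137 CPM in *C. dybowski* and 126 CPM in *C. baicalensis*, against 1.52 CPM in *B. nikolskii* and 9.56 CPM in *B. multiradiatus*, a log2 difference of 4.68 ± 1.02 (SE, limma adjusted p = 0.0266). edgeR did not call it (adjusted p = 0.0693). DN37837_c0_g1 (also male-specific lethal 1) had 2.10 CPM in *C. dybowski* and 1.15 CPM in *C. baicalensis*, against 231 CPM in *B. nikolskii* and 107 CPM in *B. multiradiatus*, a log2 difference of -5.94 ± 0.84 (SE, limma adjusted p = 0.0170). Summed, beta type-4 had 139 CPM in *C. dybowski* and 127 CPM in *C. baicalensis*, against 233 CPM in *B. nikolskii* and 117 CPM in *B. multiradiatus*. The genera thus overlapped once the identifiers were added together, with a log2 difference of -0.31. The sum of all 8 core identifiers also overlapped, with 339 CPM in *C. dybowski* and 433 CPM in *C. baicalensis*, against 483 CPM in *B. nikolskii* and 268 CPM in *B. multiradiatus*.

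The sum of the regulatory identifiers kept, by contrast, was far higher in *Comephorus*, at 2385 CPM in *C. dybowski* and 2901 CPM in *C. baicalensis*, against 85.1 CPM in *B. nikolskii* and 43.0 CPM in *B. multiradiatus*. Not in this sum is the left-out identifier titled activator subunit 2, which also carries a skeletal actin title. It had 17.4 CPM in *C. dybowski* and 38.8 CPM in *C. baicalensis*, against 11849 CPM in *B. nikolskii* and 31063 CPM in *B. multiradiatus*. In the same order of species, the other left-out identifiers went both ways. ZNF598 (393 and 101, against 10897 and 20789 CPM) and SUMO2 (0.393 and 1.07, against 35.5 and 44.7 CPM) were higher in *Batrachocottus*. E2 D2 (2845 and 2237, against 2.09 and 1.26 CPM) and the maturation protein (118 and 92.5, against 1.64 and 6.14 CPM) were higher in *Comephorus*. Of the 5 regulatory identifiers kept, limma called 3 as higher in *Comephorus* (30.1% of all 792 were), 1 as higher in *Batrachocottus* (24.0% of all were) and 1 not at all.

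Activator complex subunit 3 forms a cap that in mammals opens the nuclear proteasome without a need for ubiquitin, and its identifier made up most of this sum. It had 1833 CPM in *C. dybowski* and 1841 CPM in *C. baicalensis*, against 20.8 CPM in *B. nikolskii* and 10.3 CPM in *B. multiradiatus* (DN1021_c0_g1). The *Comephorus* species were almost equal, and the mean level was 118 times that of *Batrachocottus* (6.87 ± 0.79 log2, SE, limma adjusted p = 0.0144, edgeR adjusted p = 0.0177). The identifier has 4 titled contigs, of which 1 is titled ribosomal protein L34 and 1 the ribosome biogenesis protein NOP53.

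Non-ATPase subunit 7, a lid protein that holds the deubiquitinating subunit in place, had 233 CPM in *C. dybowski* and 139 CPM in *C. baicalensis*, against 0.543 CPM in *B. nikolskii* and 3.55 CPM in *B. multiradiatus*. It has 1 titled contig and no other title (DN3861_c0_g1), and its log2 difference was 6.09 ± 0.94 (SE, limma adjusted p = 0.0188). Non-ATPase subunit 3, another lid protein with 1 titled contig and no other title (DN892_c1_g1), went the other way. It had 0.874 CPM in *C. dybowski* and 1.16 CPM in *C. baicalensis*, against 57.7 CPM in *B. nikolskii* and 15.4 CPM in *B. multiradiatus*, a log2 difference of -3.95 ± 0.97 (SE, limma adjusted p = 0.0343). These lid proteins belong to the same particle, and limma called their identifiers in opposite directions. The call of subunit 3 was lost with a pseudocount of 10 (limma adjusted p = 0.0886). By edgeR on reads rebuilt from the CPM it was not called either (adjusted p = 0.0541). Subunit 7 was called in both settings (limma adjusted p = 0.0122, edgeR adjusted p = 0.0456). Each lid identifier is listed in the count tables for its higher genus alone, so edgeR on the counts gave no value for either.

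Non-ATPase subunit 1, the large scaffold at the base of the regulatory particle, was titled on a pair of identifiers. DN1010_c0_g1 (also lipoyl synthase) had 315 CPM in *C. dybowski* and 227 CPM in *C. baicalensis*, against 6.03 CPM in *B. nikolskii* and 13.3 CPM in *B. multiradiatus*, and was called by limma (adjusted p = 0.0199) and by edgeR (adjusted p = 0.0322). DN671_c0_g2, with 1 titled contig, was high in *C. baicalensis* alone, at 693 CPM beside 2.38 CPM in *C. dybowski*, against 0.040 CPM in *B. nikolskii* (under the level of 3 counts) and 0.425 CPM in *B. multiradiatus*. Its genus difference of 5.31 ± 2.82 log2 (SE) was not called (limma adjusted p = 0.173), and it was 1.47 log2 without *C. baicalensis* and 9.15 log2 without *C. dybowski*. The best match of this contig in the annotation table was a human protein, while most titles were matched to the mullet *Mugil cephalus* or the carp *Carassius gibelio*. Summed, the pair had 318 CPM in *C. dybowski* and 920 CPM in *C. baicalensis*, against 6.07 CPM in *B. nikolskii* and 13.8 CPM in *B. multiradiatus*.

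**Figure D2:**
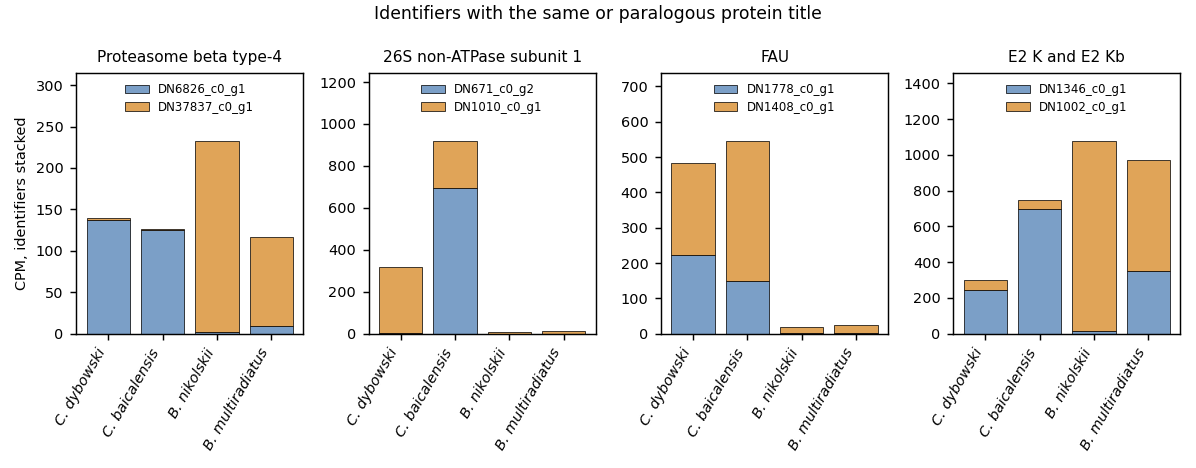
CPM (y axis) in the 4 libraries for identifiers that share a protein title (proteasome beta type-4, non-ATPase subunit 1, FAU) or have close titles (E2 K and E2 Kb), stacked. For beta type-4 the *Comephorus* bars are almost wholly DN6826_c0_g1 and the *Batrachocottus* bars almost wholly DN37837_c0_g1, while the FAU and non-ATPase subunit 1 bars are far higher in *Comephorus*.

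Ubiquitin is made as fusions with ribosomal proteins. The eL40 fusion, 1 of the sources of free ubiquitin, was high in a single library. Its identifier had 2.31 CPM in *C. dybowski* and 1.40 CPM in *C. baicalensis*, against 2239 CPM in *B. nikolskii* and 1.91 CPM in *B. multiradiatus* (DN10642_c1_g3, 1 titled contig). The genera overlapped and the difference of -4.84 ± 3.48 log2 (SE) was not called (limma adjusted p = 0.274, edgeR adjusted p = 0.125). It was -0.05 log2 without *B. nikolskii*, and -9.63 log2 and called without *B. multiradiatus* (limma adjusted p = 0.0483). The best match of this contig, too, was a human protein.

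FAU joins a ubiquitin-like protein to ribosomal protein S30, and both identifiers titled so were higher in *Comephorus* by both tests. DN1778_c0_g1 (also the kinase STK11) had 223 CPM in *C. dybowski* and 150 CPM in *C. baicalensis*, against 1.84 CPM in *B. nikolskii* and 1.13 CPM in *B. multiradiatus*. DN1408_c0_g1 (also myeloid leukemia factor 2) had 260 CPM in *C. dybowski* and 396 CPM in *C. baicalensis*, against 17.1 CPM in *B. nikolskii* and 23.6 CPM in *B. multiradiatus*. Their limma differences were 6.23 ± 0.76 and 3.93 ± 0.76 log2 (SE, adjusted p = 0.0144 and 0.0217). The summed FAU level was 23.6 times higher in *Comephorus*.

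The single E1 identifier differed little within each genus. UBA6, which in mammals charges ubiquitin and the ubiquitin-like FAT10, had 163 CPM in *C. dybowski* and 175 CPM in *C. baicalensis*, against 6.35 CPM in *B. nikolskii* and 6.92 CPM in *B. multiradiatus* (DN2712_c0_g1). The log2 difference was 4.48 ± 0.72 (SE, limma adjusted p = 0.0188, edgeR adjusted p = 0.0223). Its other titles are DDX54, an RNA helicase, and a mitochondrial complex I subunit.

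Of the 4 E2 identifiers, limma called 1 as higher in *Comephorus* (30.1% of all 792 were), 1 as higher in *Batrachocottus* (24.0% of all were) and 2 not at all. The one titled E2 E1 had 364 CPM in *C. dybowski* and 456 CPM in *C. baicalensis*, against 0.871 CPM in *B. nikolskii* and 3.14 CPM in *B. multiradiatus* (DN50_c0_g4, 7.20 ± 0.83 log2, SE, limma adjusted p = 0.0144). The same identifier has a contig titled hemoglobin embryonic subunit alpha. Of the 9 hemoglobin identifiers, this one included, limma called 5 as higher in *Comephorus* (30.1% of all 792 were) and 1 as lower (24.0% of all were). Whether the reads of DN50_c0_g4 came from the E2 contig or from the hemoglobin contig was not tested.

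E2 K builds ubiquitin chains of the kind that the proteasome reads. Its identifier had 245 CPM in *C. dybowski* and 700 CPM in *C. baicalensis*, against 14.0 CPM in *B. nikolskii* and 348 CPM in *B. multiradiatus* (DN1346_c0_g1, also ribosome production factor 1), so the genera overlapped and the difference was not called (limma adjusted p = 0.278), at 2.52 log2 with all libraries, 0.25 log2 without *B. nikolskii* and 4.79 log2 without *B. multiradiatus*. Whether the title E2 Kb names the same gene as E2 K was not tested. E2 Kb stood on an identifier with 54.3 CPM in *C. dybowski* and 45.6 CPM in *C. baicalensis*, against 1066 CPM in *B. nikolskii* and 626 CPM in *B. multiradiatus* (DN1002_c0_g1). This was lower in *Comephorus* by both tests (-4.01 ± 0.77 log2, SE, limma adjusted p = 0.0214). The identifier also carries the deubiquitinase OTUD6B, the M-band protein myomesin-2 and an acyl-CoA dehydrogenase. E2 R2, which works with cullin ligases, had 2.03 CPM in *C. dybowski* and 3.01 CPM in *C. baicalensis*, against 67.6 CPM in *B. nikolskii* and 0.277 CPM in *B. multiradiatus* (DN1966_c0_g2, also phosducin-like 3). It was not called (limma adjusted p = 0.563), and without *B. nikolskii* its log2 difference turned to 1.45, against -1.43 with it. Without *B. multiradiatus* it was -4.30 and called (limma adjusted p = 0.0483).

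**Figure D3:**
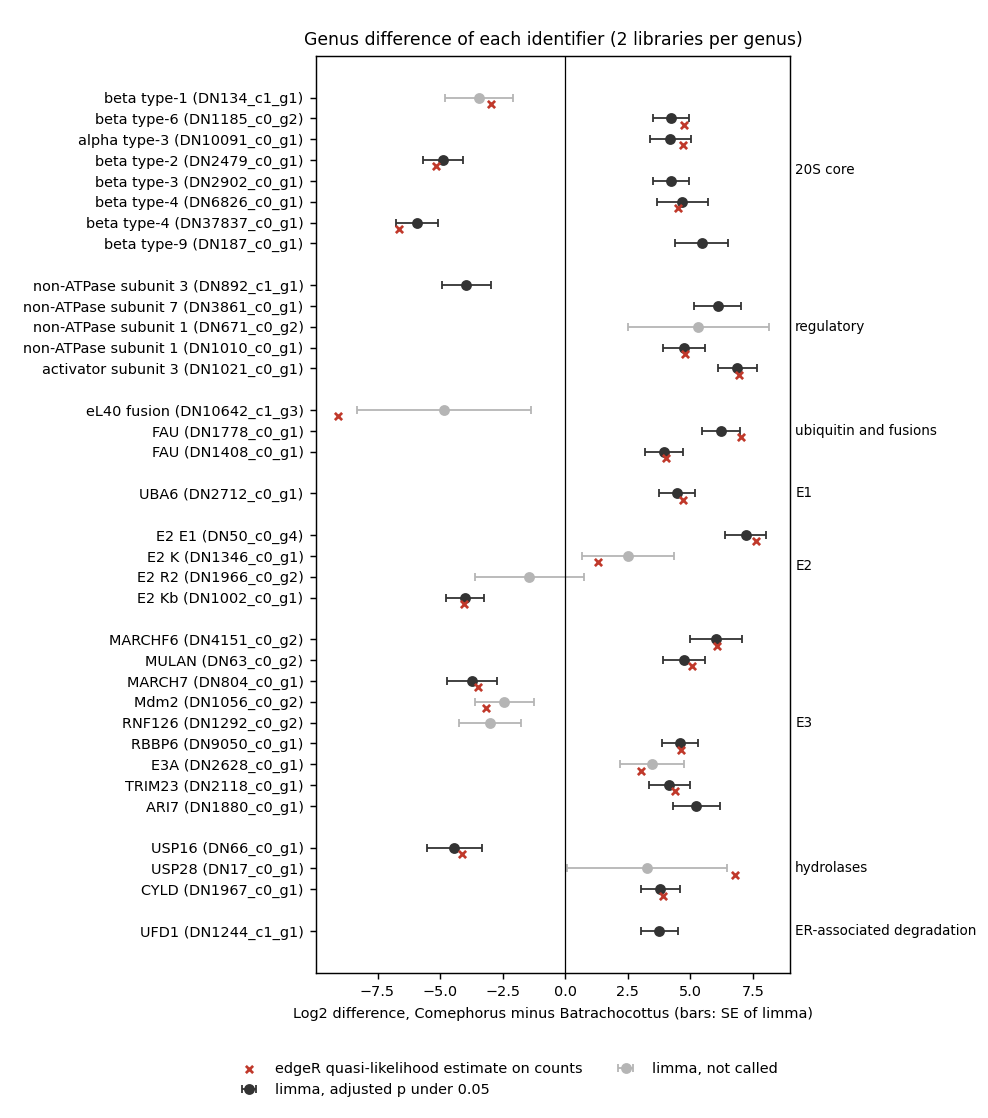
Log2 difference of each of the 34 identifiers named in the text, *Comephorus* minus *Batrachocottus* (x axis), as points with the SE of limma, dark where called at an adjusted p under 0.05 and grey where not, and as crosses for the edgeR estimate on counts where the identifier was listed for both genera. Dark points right of 0 number 19 and dark points left of 0 number 6.

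The 10 E3 identifiers fell in both directions. limma called 5 as higher in *Comephorus* (30.1% of all 792 were), 2 as higher in *Batrachocottus* (24.0% of all were) and 3 not at all. RBBP6, a RING ligase that also takes part in processing the ends of mRNA, had 1907 CPM in *C. dybowski* and 1747 CPM in *C. baicalensis*, against 87.6 CPM in *B. nikolskii* and 64.7 CPM in *B. multiradiatus* (DN9050_c0_g1, 4.58 ± 0.73 log2, SE, limma adjusted p = 0.0188). Its second titled contig is ribosomal protein uL14, matched to a human protein. MARCHF6, a ligase of the endoplasmic reticulum membrane, had 584 CPM in *C. dybowski* and 324 CPM in *C. baicalensis*, against 12.3 CPM in *B. nikolskii* and 2.45 CPM in *B. multiradiatus* (DN4151_c0_g2, also fibulin-7, limma adjusted p = 0.0199). The mitochondrial ligase titled as activator of NF-kappaB had 167 CPM in *C. dybowski* and 105 CPM in *C. baicalensis*, against 6.16 CPM in *B. nikolskii* and 2.45 CPM in *B. multiradiatus* (DN63_c0_g2, limma adjusted p = 0.0199). Its second title is MEF2C, a transcription factor of muscle. In these 2 identifiers the titled contigs are neighbours in running number.

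TRIM23, a ligase with a GTPase domain, had 71.6 CPM in *C. dybowski* and 76.4 CPM in *C. baicalensis*, against 1.85 CPM in *B. nikolskii* and 5.12 CPM in *B. multiradiatus* (DN2118_c0_g1, limma adjusted p = 0.0217). It shares its identifier with the mitochondrial phosphate carrier, a peptidylprolyl isomerase and an uncharacterized protein. The ligase titled ARI7, a name from plants, had 59.6 CPM in *C. dybowski* and 75.1 CPM in *C. baicalensis*, against 2.24 CPM in *B. nikolskii* and a listed 0 in *B. multiradiatus* (DN1880_c0_g1, also vestigial-like 2b and a mitochondrial glutamate carrier, limma adjusted p = 0.0200). These 5 were named for their call as higher in *Comephorus*, so a lack of overlap among them adds nothing. Of all 10 E3 identifiers, 6 were higher in *Comephorus* without overlap (44.6% of all 792 were). The other direction without overlap held 4 of the 10 (39.9% of all did).

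MARCH7 was higher in *Batrachocottus*. It had 3.31 CPM in *C. dybowski* and 15.8 CPM in *C. baicalensis*, against 116 CPM in *B. nikolskii* and 105 CPM in *B. multiradiatus* (DN804_c0_g1, limma adjusted p = 0.0410, edgeR adjusted p = 0.0794). With a pseudocount of 0.1 limma did not call MARCH7 (adjusted p = 0.0536). The identifier of MARCH7 is also titled fast troponin T, a thin filament protein, and lymphocyte antigen 75.

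The ligases not called were E3A, RNF126 and Mdm2. E3A, known in mammals from Angelman syndrome, had 86.1 CPM in *C. dybowski* and 78.5 CPM in *C. baicalensis*, against 20.4 CPM in *B. nikolskii* and 1.64 CPM in *B. multiradiatus* (DN2628_c0_g1, also cyclophilin A, a branched-chain ketoacid dehydrogenase subunit and a transglutaminase, limma adjusted p = 0.0877). Its difference of 3.47 log2 was 1.96 without *B. multiradiatus* and 4.98 without *B. nikolskii*. RNF126, a ligase of cytosolic quality control, had 0.711 CPM in *C. dybowski* and 1.32 CPM in *C. baicalensis*, against 41.9 CPM in *B. nikolskii* and 4.99 CPM in *B. multiradiatus* (DN1292_c0_g2, also nucleolar protein 16, limma adjusted p = 0.108). Without *B. multiradiatus* it was called (-4.43 log2, limma adjusted p = 0.0483), and without *B. nikolskii* its difference was -1.59 log2. Mdm2, the ligase that limits p53, had 5.06 CPM in *C. dybowski* and 1.66 CPM in *C. baicalensis*, against 8.75 CPM in *B. nikolskii* and 47.9 CPM in *B. multiradiatus* (DN1056_c0_g2, also an EH domain-binding protein and LAMTOR3, limma adjusted p = 0.144). Its difference of -2.44 log2 was -1.28 without *B. multiradiatus* and -3.60 without *B. nikolskii*. In each of the 3 the genera did not overlap. E3A was higher in *Comephorus* (44.6% of all 792 were so without overlap), and RNF126 and Mdm2 in *Batrachocottus* (39.9% of all were). The *Batrachocottus* species lay at least 4-fold apart on the log2(CPM + 1) scale in each.

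The 3 hydrolase identifiers took 3 different courses. CYLD, which removes signalling chains of ubiquitin, had 132 CPM in *C. dybowski* and 153 CPM in *C. baicalensis*, against 13.1 CPM in *B. nikolskii* and 6.63 CPM in *B. multiradiatus* (DN1967_c0_g1, also an SH3 domain-binding glutamic acid-rich protein, 3.79 ± 0.78 log2, SE, limma adjusted p = 0.0236). USP16, which acts on histone H2A in mammals, stood on an identifier with 36.9 CPM in *C. dybowski* and 6.56 CPM in *C. baicalensis*, against 335 CPM in *B. nikolskii* and 403 CPM in *B. multiradiatus* (DN66_c0_g1, -4.44 ± 1.10 log2, SE, limma adjusted p = 0.0343, edgeR adjusted p = 0.0671). This identifier has 5 titled contigs, among them tropomyosin alpha-1, a thin filament protein, and a caveolae-associated protein. USP28 stood on an identifier that also carries tubulin alpha and was high in 1 library, with 11.0 CPM in *C. dybowski* and 5349 CPM in *C. baicalensis*, against 26.2 CPM in *B. nikolskii* and 24.6 CPM in *B. multiradiatus* (DN17_c0_g1). It was not called (limma adjusted p = 0.393), and its log2 difference of 3.26 turned to -1.14 without *C. baicalensis* and was 7.66 without *C. dybowski*.

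UFD1, which feeds ubiquitinated proteins of the endoplasmic reticulum to their unfoldase, had 19.1 CPM in *C. dybowski* and 27.7 CPM in *C. baicalensis*, against 0.853 CPM in *B. nikolskii* and 0.694 CPM in *B. multiradiatus*. Its log2 difference was 3.76 ± 0.74 (DN1244_c1_g1, SE, limma adjusted p = 0.0219). The identifier is also titled keratin type I 15. Of the 7 keratin identifiers, this one included, 4 were higher in *Comephorus* without overlap (44.6% of all 792 were). Higher in *Batrachocottus* was 1 (39.9% of all were), and 2 overlapped. limma called 2 of the 7 as higher in *Comephorus* (30.1% of all were) and 0 as lower (24.0% of all were). An unadjusted limma p under 0.05 was seen in 3 of 7, beside 486 of all 792. The part of keratin reads in the UFD1 value was not tested.

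Within a genus, the 2 species could be compared only as 1 library against 1, without a test. In *Comephorus* 26 of the 35 identifiers lay within 2-fold of each other on the log2(CPM + 1) scale (74.3%, beside 51.1% of all 792), and in *Batrachocottus* 17 did (48.6%, beside 49.2% of all). The median size of the difference was 0.47 log2 between *C. dybowski* and *C. baicalensis* (0.97 over all 792) and 1.03 log2 between *B. nikolskii* and *B. multiradiatus* (1.02 over all). The 35 identifiers were thus closer together in *Comephorus* than the tables as a whole, and about as far apart in *Batrachocottus*.

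At least 4-fold apart in *Comephorus* were 5 of the 35. USP16 was the 1 of 35 higher in *C. dybowski*, where 12.4% of all 792 were, by a ratio of 5.63. Higher in *C. baicalensis* were 4 of 35, where 14.1% of all were. These were beta type-1 and beta type-9, non-ATPase subunit 1 (DN671_c0_g2, ratio 291) and USP28 (ratio 487). In *Batrachocottus* 7 were at least 4-fold apart. The 4 of 35 higher in *B. nikolskii*, where 17.0% of all were, were the eL40 fusion (ratio 1170), E2 R2 (ratio 244), E3A (ratio 12.5) and RNF126 (ratio 8.40). The 3 of 35 higher in *B. multiradiatus*, where 13.1% of all were, were E2 K (ratio 24.8), beta type-4 on DN6826_c0_g1 (ratio 6.27) and Mdm2 (ratio 5.47). The identifiers highest in *B. nikolskii* were read in the library that also held the egg and liver markers, and the part of that in these ratios was not tested.

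**Figure D4:**
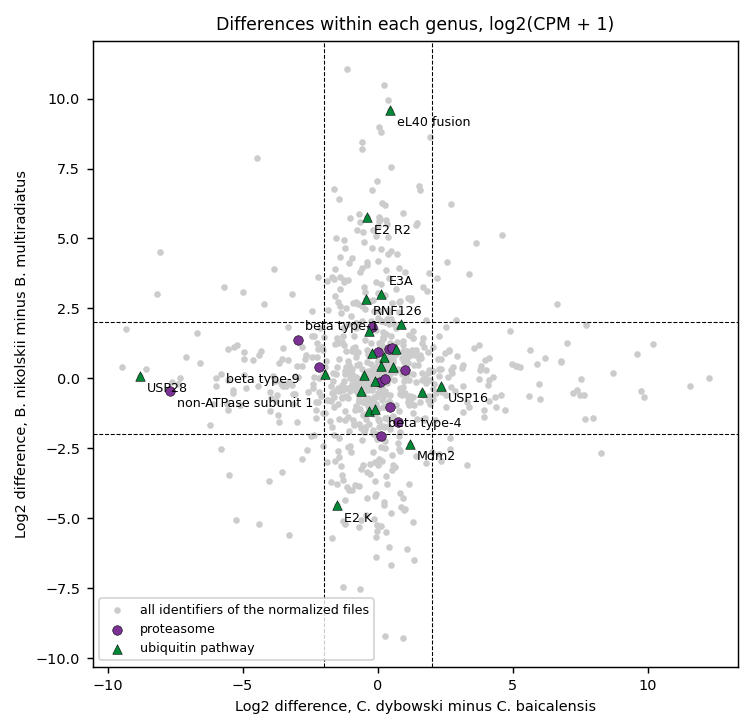
Difference between the species of each genus on the log2(CPM + 1) scale, *C. dybowski* minus *C. baicalensis* on the x axis and *B. nikolskii* minus *B. multiradiatus* on the y axis, for all 792 identifiers (grey) and the 35 proteasome (circles) and ubiquitin (triangles) identifiers. Dashed lines mark 4-fold, and the 12 labelled points lie beyond 1 of them.

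A library that stood at least 4-fold above the next highest of the 4 was seen in 7 of the 35 identifiers, beside 283 of all 792 (35.7%). Those 7 were highest in *C. baicalensis* (beta type-9, non-ATPase subunit 1 on DN671_c0_g2, USP28), in *B. nikolskii* (the eL40 fusion, E2 R2, RNF126) and in *B. multiradiatus* (Mdm2). No identifier of the 35 stood so in *C. dybowski*. Of the 3 identifiers with a title matched to a human protein, 2 belonged to the 7. Over the whole table, 6 of 18 identifiers with such a title stood at least 4-fold above in 1 library.

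The running numbers of the contigs went together with the library in which an identifier was highest. Transcript names repeated under different numbers split the numbers into 4 runs, and the sources used here do not say which assembly each run comes from. Among all identifiers whose titled contigs lay surely in run 1, 25 of 37 were highest in *C. dybowski*, and in run 2, 25 of 38 were highest in *C. baicalensis*. In run 3, 32 of 56 were highest in *B. nikolskii*, and in run 4, 28 of 42 were highest in *B. multiradiatus*. Of the 35 identifiers, 20 had titled contigs in at least 2 runs. Where the proteasome or ubiquitin title itself lay surely in runs 1 and 2 (10 identifiers), 7 were higher in *Comephorus* without overlap, 2 were higher in *Batrachocottus* and 1 overlapped. Where it lay surely in runs 3 and 4 (10 identifiers), 4 were higher in *Comephorus*, 5 were higher in *Batrachocottus* and 1 overlapped. Over all 792 identifiers, 44.6% were higher in *Comephorus* without overlap and 39.9% in *Batrachocottus*, and the contrast between the runs was not tested. The part of the assembly origin in the genus differences was not tested.

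**Figure D5:**
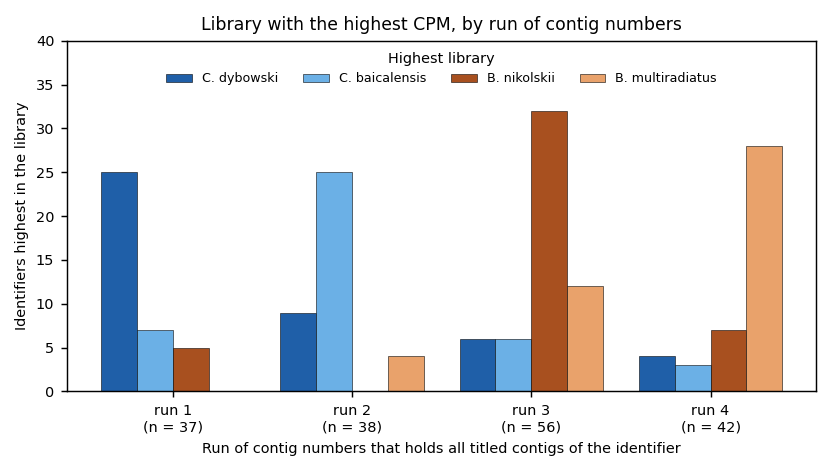
Number of identifiers (y axis) of the whole normalized table that were highest in each library (bars), by the run of contig numbers that holds all their titled contigs (x axis, n under each run). The tallest bars are *C. dybowski* (run 1), *C. baicalensis* (run 2), *B. nikolskii* (run 3) and *B. multiradiatus* (run 4).

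The 7 identifiers with a single titled contig are those without a second titled contig. Of these, 4 were higher in *Comephorus* without overlap (beta type-6, alpha type-3, non-ATPase subunits 7 and 1), 2 were higher in *Batrachocottus* (beta type-1, non-ATPase subunit 3) and the eL40 fusion overlapped. Over all 792, 44.6% were higher in *Comephorus* without overlap and 39.9% in *Batrachocottus*. Of the 7, limma called 3 as higher in *Comephorus* (30.1% of all 792 were) and 1 as lower (24.0% of all were). Their differences ran in both directions, from -4.84 to 6.09 log2, with a median of 4.20. The 6 proteasome identifiers among them summed to 359 CPM in *C. dybowski* and 952 CPM in *C. baicalensis*, against 179 CPM in *B. nikolskii* and 66.1 CPM in *B. multiradiatus*. Single identifiers made up most of each sum. These were subunit 7 in *C. dybowski* (233 CPM) and subunit 1, not called, in *C. baicalensis* (693 CPM). In *B. nikolskii* and *B. multiradiatus* it was beta type-1 (115 and 43.4 CPM).

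Other proteins of the ubiquitin system, whose titles lack both words, went in both directions. Of 18 such identifiers (F-box, cullin, kelch-like, COP9 signalosome, SUMO, tripartite motif and BTB/POZ proteins), limma called 7 as higher in *Comephorus*, 6 as higher in *Batrachocottus* and 5 not at all, beside the 30.1% and 24.0% of all 792 given above. Their differences ran from -8.27 to 4.95 log2, with a median of -1.70. Without overlap, 8 of 18 were higher in *Comephorus*, beside the 44.6% of all, and 7 of 18 in *Batrachocottus*, beside the 39.9% of all. In 3 the genera overlapped. The rule that left out actin, myosin and tropomodulin titles was not applied to these 18, so their values are not a like match for the 35. Their contrast with the 35 identifiers was not tested. F-box protein 32, the muscle ligase known as atrogin-1 from atrophy in mammals, had 1.34 CPM in *C. dybowski* and 1.24 CPM in *C. baicalensis*, against 66.7 CPM in *B. nikolskii* and 0.229 CPM in *B. multiradiatus* (DN453_c0_g1). It was thus high in the same library as the eL40 fusion and E2 R2. Kelch-like 41b, a muscle protein that serves cullin-3 ligases in mammals, was titled on 3 identifiers. One had 104 CPM in *C. dybowski* and 118 CPM in *C. baicalensis*, against 1.37 CPM in *B. nikolskii* and 13.7 CPM in *B. multiradiatus* (DN4312_c0_g2), and the other two were highest in *B. nikolskii* (DN7011_c1_g4, 86.6 CPM) and in *B. multiradiatus* (DN7011_c1_g2, 89.4 CPM). Of 5 identifiers of other proteolysis (calpain-7, cathepsin Z and autophagy proteins), limma called 2 as higher in *Comephorus*, where 30.1% of all 792 were, and 3 not at all. The 2 called were those titled calpain-7, of which DN38_c1_g1 also carries a skeletal myosin light chain title and DN48_c2_g1 a fast troponin T title, which places the second among the muscle markers as well. Cathepsin Z, a lysosomal protease, had 19.96 CPM in *C. dybowski* and 5.14 CPM in *C. baicalensis*, against 0.896 CPM in *B. nikolskii* and 1.14 CPM in *B. multiradiatus* (DN986_c0_g2).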

How the data were processed

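Muscle RNA of 4 species was read as 1 pooled, unstranded, poly(A)-selected library each. The authors trimmed reads with Trimmomatic 0.36, assembled each species with Trinity, combined the assemblies, removed near-identical contigs by CD-HIT, and quantified reads in Salmon. The deposited count tables hold whole-number read estimates per identifier, listed for a genus only above a low level in both libraries. The deposited normalized tables hold CPM that the authors scaled with TMM in edgeR 4.0.3 for 792 identifiers they had called. CPM times library size gave whole numbers (within 0.1) for 19.3% to 23.5% of values, so reads were not recovered and the planned test on them was not run. It was replaced by edgeR on rebuilt, rounded estimates, chosen after seeing the data.

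limma 3.58.1 was run on log2(CPM + 1) over all 792 identifiers with no filter, and edgeR 4.0.16 (quasi-likelihood, TMM) on the counts of the 4755 identifiers listed for both genera, both with Benjamini-Hochberg adjustment at 0.05. Each model gives 1 mean per genus, and the p-values measure only the spread between the 2 species of a genus. Fold changes on the log2(CPM + 1) scale understate those of low identifiers. Both fits were tried on simulated counts in which most identifiers were unchanged. The 792 identifiers were selected as different, so that trial does not show how limma behaves on them. The alternatives were other pseudocounts, filters, normalizations, DESeq2 1.42.0 and leaving out each library.

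Titles came from the study's annotation table, of which 1325 lines were held, so some identifiers may lack titles here. Every identifier taken by the title rule is counted and named, except that the result for 1 identifier is not reported here. The members and lists were chosen with earlier results of these data known. The authors' own fold changes and p-values were not used. No gene sequences were used here.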

Additional observations from a re-analysis of the deposited data

How the results depend on the processing

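No paired analysis was possible because the replicate numbers were given in accession order and the libraries of the 2 genera come from different species. The count of limma calls (26 of 35) was 25 with a pseudocount of 0.1 (225 higher and 178 lower in *Comephorus* of all 792). With a pseudocount of 10 it was 24 (214 and 165 of all 792). With a filter of 5 CPM it was 26 of 31 (253 and 209 of all 701). It was 23 of 32 without identifiers carrying a tropomyosin, troponin or myomesin title (238 higher and 190 lower of all 792, where such titles were kept). It was 0 to 22 with 1 library left out, 16 with edgeR on rebuilt read estimates (141 and 101 of all 792 called as higher and lower in *Comephorus*, against 238 and 190 by limma) and 4 of 7 with 1 titled contig, where fewer identifiers were counted. The edgeR count calls (16 of 25) were 24 with DESeq2 (874 higher and 934 lower over all, against 238 and 200), 20 without TMM, 16 of 24 with the filter, 33 of 35 with identifiers not listed set to 0 (5640 and 6028 of all 15221), and 0 to 19 with 1 library left out. Identifiers without overlap were 31 of 35, where 44.6% of all 792 were higher and 39.9% lower in *Comephorus* without overlap. They were 6 of 7 with 1 titled contig and 28 of 32 without the filament titles. With identifiers of the same protein summed they were 27 of 32, an alternative chosen after seeing the data. The median difference (3.93) was 4.54 with a pseudocount of 0.1, 2.44 with 10 and 3.63 to 4.15 with 1 library left out. Identifiers at least 4-fold apart in *Comephorus* (5) were 2 with a pseudocount of 10, 2 of 7 with 1 titled contig and 9 at a 2-fold limit. In *Batrachocottus* (7) they were 3, 1 and 18 under the same alternatives. Leaving out 1 library, the difference ranged for E2 R2 from -4.30 to 1.45 (without *B. nikolskii*), for the eL40 fusion from -9.63 to -0.05, for non-ATPase subunit 1 on DN671_c0_g2 from 1.47 to 9.15 and for USP28 from -1.14 (without *C. baicalensis*) to 7.66. By edgeR on rebuilt read estimates, 10 of the 35 lost their limma call. Among them were alpha type-3, beta type-4 on DN6826_c0_g1, non-ATPase subunit 3, MARCH7, TRIM23, ARI7, USP16, CYLD and UFD1. Where fewer identifiers or libraries do not account for a change, the cause was not tested. Depth limits values near 3 counts (0.0441 to 0.0567 CPM), as for DN671_c0_g2 in *B. nikolskii*. With 1 library left out, the lone library of its genus is assumed to vary like the other genus. Intervals within a species could not be given with 1 library each.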
